A study of Homo sapiens with 4 samples.

Results

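F-box protein genes were followed in K562 cells, an established human erythroleukemia line, after treatment with AC-1041, a phthalimide of the thalidomide analog class. The set held the gene probes whose name in the files began with FBXO, FBXL or FBXW, together with SKP1, SKP2, CUL1 and RBX1, and it took 63 of the 14297 gene probes of the array, 1 probe for each gene. The family was chosen by measured values, because the treated over control ratios of these same 4 arrays, that of FBXO30 among them, were known when it was singled out. Its members were then taken by name. The ratios are therefore a description, and no p-value is given for a member.

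F-box proteins are the interchangeable part of the SCF ubiquitin ligases. CUL1 is the scaffold, RBX1 the RING protein that recruits the ubiquitin-conjugating enzyme, and SKP1 the adaptor that holds the F-box protein, which in turn binds the substrate. FBXL proteins carry leucine-rich repeats, FBXW proteins carry WD repeats, and FBXO proteins carry other domains or none that is known. Which F-box proteins a cell makes thus sets part of which proteins it marks for degradation, among them cyclins, cell cycle inhibitors and, in erythroid cells, regulators of iron supply.

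Each array compared RNA of K562 cells given AC-1041 for 4 h with RNA of control K562 cells of the same time. The treated RNA was labelled with Cy5 on arrays 1 and 2 and with Cy3 on arrays 3 and 4. The labels call the control cells untreated, whereas the methods of the study describe a DMSO vehicle. The methods name quadruplicate samples but not which of them went on which array, so the errors given here measure only the spread between these arrays, which may be technical. K562 is a single line that carries the BCR-ABL fusion, and no other cell line was on these arrays. RNA of whole cultures was measured, so fewer cells with a transcript and less transcript per cell cannot be told apart.

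The arrays gave 5941 to 9515 gene probes well above background in a channel, the lower numbers on arrays 1 and 2. The log2 ratios of arrays 1 and 2 correlated at 0.807 across probes and those of arrays 3 and 4 at 0.944, whereas pairs from different orientations gave -0.278 to -0.115 (probes are not independent replicates). The direction used here is that of the dyes in the labels. Because the orientations correlate below 0, each ratio is given for every array where it matters. Of the 10 erythroid or K562 marker genes on the array, all 10 had signal well above background somewhere and 8 in every channel, GATA1 and HBG1 among them. Of 8 marker genes of other cell types, ALB, COL1A1, KRT5 and MS4A1 were well above background in no channel, while EPCAM was so in all of them and CD14 and CD3E in some. What these last signals stand for was not tested.

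Of the 63 members, 54 entered the limma fit over 8852 probes. Well above background in no channel of any array were 8 members: FBXO15, FBXO27, FBXO39, FBXO40, FBXL7, FBXL21, FBXL22 and FBXW10. The probe of FBXO17 was marked as a poor spot on all 4 arrays. Of the 54, 34 had both channels well above background on every one of the 4 arrays, and 3, namely FBXO32, FBXO36 and FBXL17, never were in the control channel and so entered through the treated channel alone.

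FBXO30, FBXO8 and FBXL20 were at least 1.5-fold higher in the treated cells and above 0 on every array, and their promoters are shown because matches to stress-related motifs were looked for in them. The sequences are from RefSeq (GRCh38.p14) and hold the 250 bases before the transcription start, 5′ to 3′ on the gene's own strand, which is the minus strand for all of them. Capitals mark matches to the core of the antioxidant response element (TGACNNNGC), to the cAMP response element (TGACGTCA) or to its core (TGACGT), which lies inside the full element, on either strand.
FBXO30, chr6:145814796-145815045: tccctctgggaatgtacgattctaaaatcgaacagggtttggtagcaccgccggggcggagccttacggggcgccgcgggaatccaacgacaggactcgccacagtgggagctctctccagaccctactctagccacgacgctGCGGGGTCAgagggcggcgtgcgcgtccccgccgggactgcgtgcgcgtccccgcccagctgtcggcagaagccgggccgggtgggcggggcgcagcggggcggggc
FBXO8, chr4:174283668-174283917: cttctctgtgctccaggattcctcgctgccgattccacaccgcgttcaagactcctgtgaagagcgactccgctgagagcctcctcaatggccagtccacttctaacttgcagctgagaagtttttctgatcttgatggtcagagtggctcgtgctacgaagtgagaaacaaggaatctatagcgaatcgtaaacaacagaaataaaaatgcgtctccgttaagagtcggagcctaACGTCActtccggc
FBXL20, chr17:39402557-39402806: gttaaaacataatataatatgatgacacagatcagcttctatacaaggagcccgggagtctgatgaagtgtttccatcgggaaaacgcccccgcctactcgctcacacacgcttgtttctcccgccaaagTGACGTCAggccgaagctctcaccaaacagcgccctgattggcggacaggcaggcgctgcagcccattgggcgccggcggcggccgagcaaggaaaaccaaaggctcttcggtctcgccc

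FBXO30, also known as MUSA1, is a zinc finger F-box protein studied for its part in muscle atrophy. Its probe (chr6:146161244-146161303, hg18) had the highest fitted ratio of all members. The log2 ratio of treated to control was 0.89, 1.07, 1.96 and 2.01 on arrays 1 to 4, so that every array was above 0 and the arrays with the treated RNA in Cy3 were the higher pair. The channels behind these ratios were at log2 intensities of 13.82, 14.31, 14.80 and 14.82 for the treated RNA of arrays 1 to 4 and of 12.93, 13.23, 12.84 and 12.80 for the control RNA, and they did not overlap. The fitted log2 ratio was 1.48 ± 0.59 (SD, n = 4), a 2.80-fold difference with a standard error of 0.067. The standard error is smaller than the SD in part because it describes the fitted mean and not single arrays. The fit also removes the difference between dye orientations and draws its variance partly from all probes. The orientation means were 0.98 for arrays 1 and 2 and 1.99 for arrays 3 and 4.

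FBXO8, which carries a Sec7 domain of the kind found in activators of small ARF GTPases, differed by orientation far less. Its probe (chr4:175395308-175396761, hg18) gave log2 ratios of 0.88, 1.08, 1.17 and 1.28 on arrays 1 to 4, a fitted value of 1.1 ± 0.17 (SD, n = 4) or 2.14-fold. Ranked by fitted log2 ratio among the 8852 probes, FBXO30 was at place 34 from the top and FBXO8 at place 92. FBXL20, a leucine-rich repeat protein known from the turnover of a presynaptic protein in neurons, had 0.47, 0.69, 0.65 and 0.91 (chr17:34670537-34670596), fitted at 0.68 ± 0.18 or 1.60-fold. All of these were above 0 on all 4 arrays.

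FBXO33, known as a partner of the cold shock protein YB-1, showed a different pattern. It had -0.17 and 0.16 on arrays 1 and 2 but 2.08 and 1.89 on arrays 3 and 4 (chr14:38937646-38937705). Its fitted log2 ratio of 0.99 ± 1.16 (SD, n = 4) or 1.99-fold thus came from the arrays with the treated RNA in Cy3, and with the treated RNA in Cy5 the mean was -0.01. FBXO32, or atrogin-1, the muscle atrophy ligase, was at 0.69, 0.27, 0.87 and 1.25. Its probe was not well above background in any control channel, and the mean log2 values were 9.12 in treated and 8.35 in control RNA. With control values raised to at least the lowest control signal well above background on each array, the treated mean was 1.27-fold higher. The treated channel was itself well above background on only 2 of 4 arrays, so 1.27-fold is not a firm lower bound. FBXO40, another muscle F-box gene, was well above background in no channel.

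**Figure D1:**
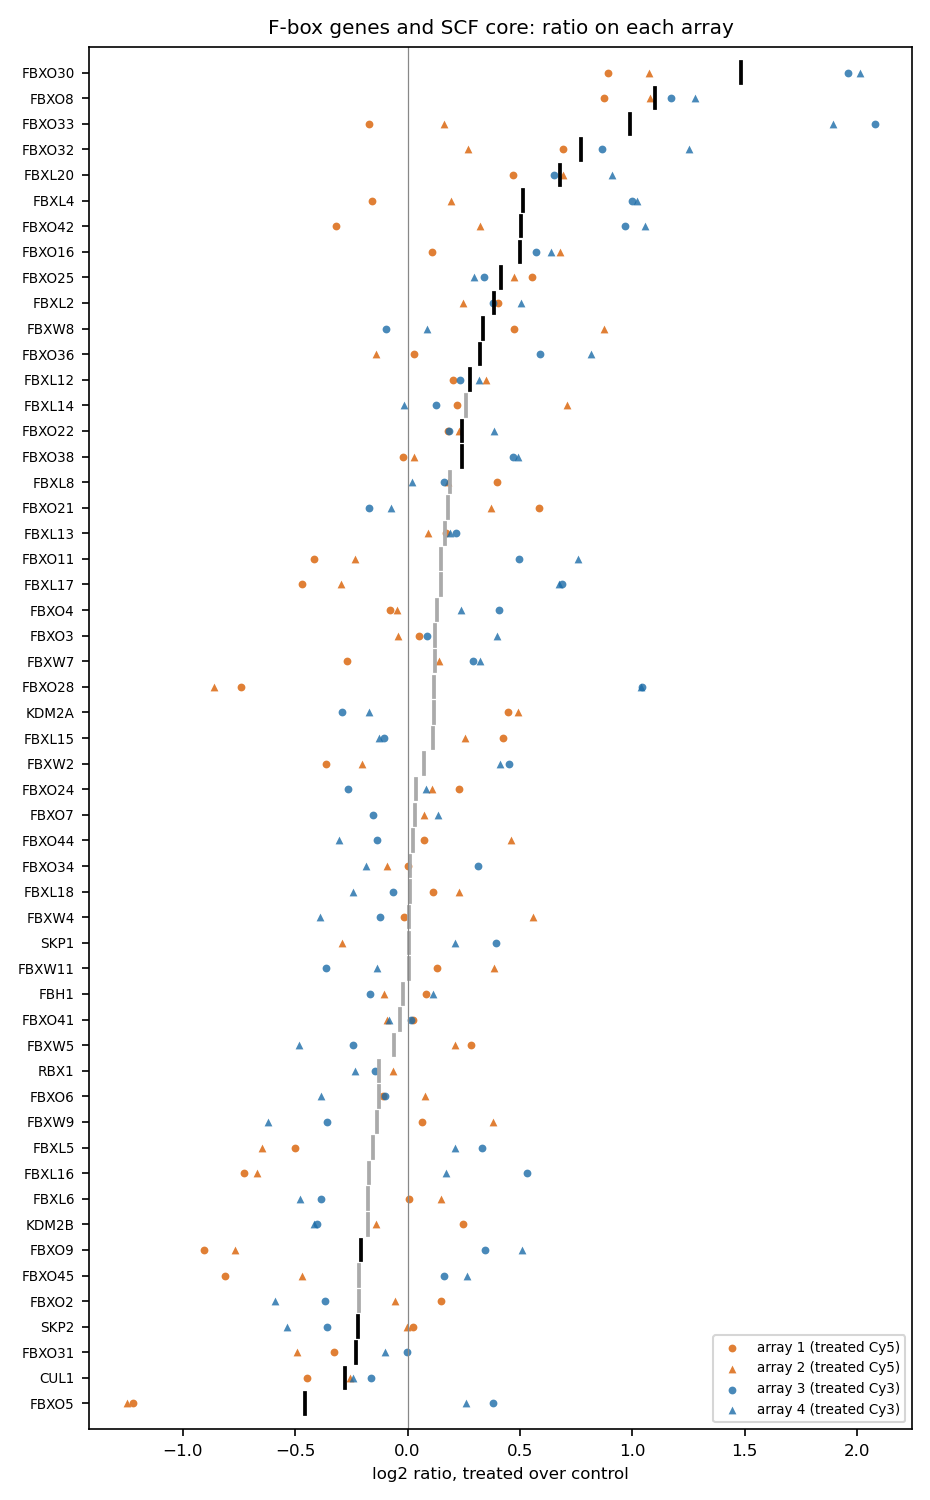
Log2 ratio of treated to control (horizontal axis) for the members tested and reported here, ordered by fitted value, with a point for each unmarked spot on the 4 arrays (orange, treated RNA in Cy5; blue, treated RNA in Cy3) and a bar for the fitted value, black where past the threshold and grey where not. FBXO30, FBXO8 and FBXL20 lie above 0 on every array, while FBXO33 is at -0.17 and 0.16 on arrays 1 and 2 and at 2.08 and 1.89 on arrays 3 and 4.

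In all, 16 of 54 members tested (29.6%) were higher in the treated cells at an adjusted p under 0.05 in the limma fit over all probes, against 23.2% of all probes tested. 5 members (9.26%) were lower, against 13.1% of all probes. The members were singled out on this same contrast, so nothing is read from these shares. Without the 3 members that entered through the treated channel alone, 14 of 51 were higher and 5 lower. The counts fell to 8 higher and 1 lower without array 3 and to 7 higher and 1 lower without array 4, when 40 members could be tested. Over all probes the shares also fell, to 13.6% higher and 5.65% lower without array 3 and to 10.7% higher and 3.11% lower without array 4. With each array centred on its median in place of loess, 22 were higher and 2 lower, and the share of higher among all probes past the threshold went from 63.9% to 79.5%. With no dye term in the fit only FBXO8 remained past the threshold, and FBXO30 had the same fitted ratio but missed it. Over all probes, 51 of 8852 were then higher and 4 lower, so the loss was not particular to the members.

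At least 1.5-fold higher were 6 members (11.1%, against 5.98% of all probes), with FBXO32 counted at its fitted value, and 0 were at least 1.5-fold lower in limma (1.16% of all probes). At an unadjusted p under 0.05, 20 members were higher and 8 lower, beside 27.9% and 18.8% of all probes. Higher and above 0 on all 4 arrays were 10 members (18.5%, against 12.4%), and lower and below 0 on all 4 arrays were 2 members (3.7%, against 6.25%). The median log2 ratio of the members was 0.12, beside 0.01 for all probes tested. On arrays 1 and 2 it was 0.05 and on arrays 3 and 4 it was 0.23, beside 0.01 and 0.05 for all probes. Fitted ratios lay within 1.5-fold for 48 of the 54 members.

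The other members that were higher had smaller ratios. FBXO25, a close relative of FBXO32, had 0.55, 0.48, 0.34 and 0.30 and was fitted at 0.42 ± 0.12 (SD, n = 4). FBXL2, an F-box protein that is anchored in membranes by a lipid group, was fitted at 0.38 ± 0.11, FBXL12 at 0.28 ± 0.07 and FBXO22, known for the turnover of histone demethylases, at 0.24 ± 0.10, each above 0 on every array. FBXO16 was fitted at 0.50 ± 0.26, also above 0 on every array, but its probe was well above background on only 2 arrays in each channel.

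Further members passed the threshold with ratios that changed sign or lay near 0 on some arrays. FBXL4, a mitochondrial F-box protein, had -0.16, 0.19, 1.0 and 1.02 and was fitted at 0.51. FBXO42, known to bind p53, had -0.32, 0.32, 0.97 and 1.05 and was fitted at 0.51. FBXO38 was fitted at 0.24, with -0.02 and 0.03 on arrays 1 and 2, and was well above background on only 2 arrays in each channel. FBXW8, the F-box partner of CUL7, was the only FBXW gene past the threshold, at 0.34, with its higher values of 0.47 and 0.87 on arrays 1 and 2. Its probe was well above background on 3 arrays in the treated channel and 2 in the control channel. FBXO36 was fitted at 0.32, but its control channel was never well above background and no fold is given.

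The SCF core, with the F-box protein SKP2 grouped with it here, showed no member that was higher in limma. CUL1, the scaffold, was lower on every array, at -0.45, -0.26, -0.16 and -0.24, with a fitted log2 ratio of -0.28 ± 0.12 (SD, n = 4), a 1.21-fold difference. It missed the threshold in the fits without array 3 and without array 4. SKP2, which is both a core regulator of the cell cycle and an F-box protein for the inhibitor p27, had 0.02 and -0.00 on arrays 1 and 2 and -0.36 and -0.54 on arrays 3 and 4, fitted at -0.22 ± 0.27. The adaptor SKP1 had -0.29, 0.39 and 0.21 on arrays 2 to 4 and was fitted at 0.00 ± 0.36 (SD, n = 3), and RBX1 had -0.06, -0.14 and -0.23 and was fitted at -0.13 ± 0.09 (SD, n = 3), since the spot of each on array 1 was marked and left out. Neither passed the threshold. The median of these 4 genes, SKP2 included, was -0.17.

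Members that were lower outside the core were FBXO5, FBXO31 and FBXO9. FBXO5, or EMI1, the inhibitor of the anaphase-promoting complex, had -1.22 and -1.25 on arrays 1 and 2 and 0.38 and 0.26 on arrays 3 and 4, so the orientations had opposite signs and the fitted value of -0.46 ± 0.90 (SD, n = 4) lay between them. FBXO9 had -0.91, -0.77, 0.34 and 0.51, again with opposite signs, fitted at -0.21 ± 0.74. Its probe was well above background on only 2 arrays in each channel. FBXO31, known for the turnover of cyclin D1, was below 0 on every array, by almost nothing on array 3, at -0.33, -0.49, -0.00 and -0.10, fitted at -0.23 ± 0.22.

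The dye orientation moved many members. The orientation means had opposite signs for 31 of 54 members (57.4%), beside 61.9% of all probes tested, and the dye term of the fit was past the threshold for 32 members (59.3%), beside 57.5% of all probes. Of these 32, 20 were higher with the treated RNA in Cy3 and 12 with it in Cy5. The largest dye terms were those of FBXO33, given above, and FBXO28, which had -0.74, -0.86, 1.04 and 1.04 with a fitted log2 ratio of 0.12 that did not pass the threshold. Fitted within each orientation, which was possible for 51 members in both, 6 were past the threshold as higher in both orientations, among them FBXO30, FBXO8, FBXL20, FBXO25 and FBXO32, the last of which entered the fit through its treated channel alone. As lower in both, limma gave 0. Over the 7991 probes fitted in both orientations the shares were 5.98% higher in both and 1.68% lower in both. 7 members were past the threshold with opposite signs, beside 16.2% of all probes: FBXO5, FBXO9, FBXO28, FBXO45, FBXL5, FBXL16 and KDM2A. The arrays of an orientation also differed in signal over background, and dye and array quality cannot be told apart.

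Further members with known roles, named here after their values were seen, did not pass the threshold. FBXW7, the receptor for cyclin E and MYC, was fitted at 0.12 ± 0.27 (SD, n = 4), and FBXO4 at 0.13 ± 0.23. FBXW11, a beta-TrCP protein that recognises phosphorylated inhibitors of NF-kappaB, was fitted at 0.00 ± 0.32. FBXL5, the iron-sensing receptor for the iron regulatory proteins, had -0.50, -0.65, 0.33 and 0.21. FBXO7, which is needed in erythroid maturation, was fitted at 0.03 from the 3 arrays on which its spot was not marked. Among the F-box genes for sugar-bearing proteins, FBXO2 was fitted at -0.22, FBXO6 at -0.13 and FBXO44 at 0.02, none past the threshold, while FBXO27 was well above background in no channel and FBXO17 was marked. The histone demethylases KDM2A and KDM2B, listed in the files as FBXL11 and FBXL10, were fitted at 0.12 and -0.18.

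By subfamily, 5 of 16 tested FBXL genes were higher and 0 lower in limma, with a median log2 ratio of 0.16. Of 27 tested FBXO genes, 10 were higher and 3 lower, with a median of 0.12. Of 7 tested FBXW genes, 1 was higher and 0 lower, with a median of 0.01. Over all probes tested, 23.2% were higher and 13.1% lower, and nothing is read from the subfamily counts. SKP2, an F-box protein that was lower, was counted with the core and not in a subfamily. The remaining members, which did not pass the threshold, were FBXL6, FBXL8, FBXL13, FBXL14, FBXL15, FBXL17, FBXL18, FBXO3, FBXO11, FBXO21, FBXO24, FBXO34, FBXO41, FBXW2, FBXW4, FBXW5, FBXW9 and FBH1, which the files list as FBXO18. FBXL14 had the highest fitted value among them, 0.26 ± 0.32, and FBXL6 the lowest, -0.18 ± 0.30.

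Of 49 members with a promoter in the RefSeq table, 4 held the core of the cAMP response element (8.16%), beside 8.32% of 27305 promoters of the same 300-base windows. These were FBXO8, FBXL20, FBXO42 and FBXO34, of which FBXO34 was fitted at 0.01. FBXO8 held it at position -14 from the transcription start and again at position 12, and FBXL20 held the full element at position -120. The full element was also in the promoter of FBXO34, so that 2 of 49 members held it (4.08%), beside 1.98% of all promoters. The antioxidant response element core was in 10 member promoters (20.4%, beside 13.6%), including that of FBXO30 at position -107. Among the other holders FBXW8 was higher and FBXO31 lower. SKP1, RBX1, FBXO7, FBXL5 and FBXO11 also held it and did not pass the threshold, and FBXO39 and FBXO40 were not tested. ATF4-type sites (TGATGNAA), held by 3.67% of all promoters, were in 1 member promoter, that of FBXO40. The heat shock element, held by 0.487% of all promoters, was in those of FBXO15 and FBXW10. These 3 genes were well above background in no channel and were not tested. A match is a stretch of letters, not a bound site.

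Other genes of the cullin-RING system were taken from a list of 40 partners, of which 33 were on the array and 30 were tested. 4 were higher, 2 lower and 24 did not pass the threshold, beside 23.2% higher and 13.1% lower of all probes, and the median log2 ratio was -0.06. CUL3, the scaffold that pairs with BTB proteins such as KEAP1, was lower on every array at -0.47, -0.62, -0.75 and -0.71, fitted at -0.64 ± 0.13 (SD, n = 4) or 1.56-fold. COPS8, a subunit of the COP9 signalosome that removes NEDD8 from cullins, was at -0.21 and also below 0 on every array. BTRC, the other beta-TrCP gene, was at 0.33 and above 0 on every array, with 0.33, 0.26, 0.32 and 0.41.

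UBE2D3, a ubiquitin-conjugating enzyme, was fitted at 0.31, CUL7 at 0.23 and COPS2 at 0.19, each with signs that differed between arrays, and the spot of UBE2D3 on array 1 was marked and left out. Of 6 tested genes for neddylation and cullin exchange, including UBA3, NAE1, UBE2M and CAND1, 0 passed the threshold in limma, with fitted values from -0.20 for NAE1 to 0.17 for CAND1. CUL2 and CUL5, scaffolds of other ligases, were between -1.13 and -1.11 on arrays 1 and 2 and above 0 on arrays 3 and 4, and neither passed the threshold. Without array 3, and again without array 4, 0 partners were higher and 1 was lower in limma, and 1 was higher at an unadjusted p under 0.05.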

How the data were processed

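K562 cells given AC-1041 and control cells were compared on 4 dye-swapped two-colour arrays. As deposited by the authors, the files hold spot and background intensity of both channels from Agilent Feature Extraction 9.5.1.1, not normalised, besides intensity values corrected by that software and log10 ratios. The deposited series table holds log10 ratios on which no replicates were averaged. From the intensities, background was corrected with normexp (offset 50), control spots were dropped and each array was normalised by loess (span 0.3). Marked spots were left out. Probes had to be well above background, in either channel, on 2 or more arrays and to have 3 or more unmarked spots.

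The log2 ratios were fitted in limma 3.58.1 (R 4.3.3), with terms for treatment and dye and Benjamini-Hochberg adjustment over 8852 probes. On simulated data for this comparison, 89% of 200 probes changed by log2 1 among 8852 were recovered, and 3.26% of calls were false. The simulation drew independent noise around the fitted model, so these percentages do not measure the false calls on the real arrays. Names came from RefSeq accessions (53 of 63 members), positions from the files (hg18). Precision is limited by the number of arrays.

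The members, gene lists and motifs were chosen with earlier results of these data known. FBXO30, the core genes and members past the threshold at 1.5-fold were described by array. Named with fitted values were the 10 largest changes past the threshold in each direction, members kept out of the fit and partners past the threshold at 1.5-fold, and others were named for their known roles after their values were seen. KDM2A and KDM2B were counted as members, not as partners. The values of 1 member that is included in the counts are not reported here.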

Additional observations from a re-analysis of the deposited data

How the results depend on the processing

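The number of members higher in the treated cells was 16 with loess and 9 when both channels had to be well above background on every array, which left 34 members. It was 1 with no dye term, 9 on the arrays with the treated RNA in Cy5 alone and 29 on those with it in Cy3 alone. Over all probes, 1274 of 5587 were higher with both channels well above background, and 51 of 8852 with no dye term. Of all 8852 probes, 2052 were higher and 1161 lower with loess, and 2286 and 589 with median centring. No count over all probes was made at an adjusted p under 0.01. On the Cy5 arrays 1063 of 8018 probes were higher and 1374 lower. On the Cy3 arrays 3498 of 8853 probes were higher and 2708 lower. The fits within an orientation were chosen after seeing the data. Leaving out 1 array at a time gave 7 to 20 higher members. The number of lower members was 5, and it was 2 with median centring, 1 at an adjusted p under 0.01, 12 on the Cy3 arrays and 0 with no dye term in limma, where 0 were also lower at an unadjusted p under 0.05, and 1 to 7 when arrays were left out. The median log2 ratio of the members, 0.12, was 0.022 for members well above background in both channels and 0.23 on the Cy3 arrays, and 0.087 to 0.12 when arrays were left out.

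The 4 higher partners became 1 with the processed signals, the series table or an adjusted p under 0.01. They became 2 with median centring, with both channels well above background, with marked spots kept or on the Cy5 arrays, 11 on the Cy3 arrays, and 0 with no dye term in limma, where 1 was higher at an unadjusted p under 0.05. When arrays were left out they were 0 to 4. Over all 8852 probes, 1577 were higher and 1148 lower with the processed signals, and 1581 and 1106 with the series table. With marked spots kept, 1941 of 9191 probes were higher and 1078 lower. The 2 lower partners became 1 with median centring or at an adjusted p under 0.01, 7 on the Cy5 arrays, 9 on the Cy3 arrays and 0 with no dye term, where 1 was lower at an unadjusted p under 0.05, and were 1 to 4 when arrays were left out.

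The sign turned for SKP1 with median centring (-0.12), for FBXO33 (-0.0057) and SKP2 (0.0097) on the Cy5 arrays, and for FBXO5 (0.32) and FBXO9 (0.43) on the Cy3 arrays. The cause was not tested. Of the lower members, CUL1 missed the threshold with its sign unchanged in 7 of the other settings, the stricter threshold included. FBXO31 did so in 9, FBXO9 in 7, SKP2 in 5 and FBXO5 in 1. For CUL1 these included the processed signals and the series table. All arrays were on 1 slide scanned on 1 date, so no block for either could be fitted. Treated and control RNA were paired within each array through the ratio that was fitted, and no further pairing term was used. Arrays 1 and 2 had fewer probes well above background, which limits what they can show for dim members.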
